A study of Homo sapiens with 6 samples.

Results

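The protein kinase C genes described here are PRKCA, PRKCB, PRKCD, PRKCE, PRKCH, PRKCI, PRKCQ and PRKCZ, together with the related protein kinase D genes PRKD2 and PRKD3. These 10 genes, of 34234 in the count table, were chosen by family name, with the lower PRKCB count after ATXN7L3 knockdown already known. The values below ask whether any of the others offset that difference. Because the comparison itself was used in the choice, differences of the 10 members between groups are given as a description, without p-values. Where a member is placed past the threshold used for all genes, or not, that label is also description and not a test. RNA was sequenced from HCCLM3, an established human hepatocellular carcinoma line, in 3 libraries that received a lentivirus labelled shcontrol and 3 that received one labelled shATXN7L3, a short hairpin RNA against ATXN7L3. Both groups were grown in DMEM with serum and had their medium changed after the virus was added, and poly-A RNA was selected. No other agent or allele is named. Whether replicates were separate cultures is not said, so p-values measure the spread between libraries, which may be technical.

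Protein kinase C enzymes phosphorylate serine and threonine residues after receptors activate phospholipase C, which splits a membrane phosphoinositide into diacylglycerol and a calcium-releasing sugar phosphate. Conventional isoforms, such as alpha and beta, respond to calcium and diacylglycerol. The delta, epsilon, eta and theta isoforms respond to diacylglycerol alone and are called diacylglycerol-only here. Atypical isoforms (iota, zeta) respond to neither, acting instead in cell polarity complexes. Protein kinase D enzymes bind diacylglycerol and are activated by the diacylglycerol-only isoforms. PRKCB is best known from B lymphocytes, PRKCQ from T lymphocytes, and PRKCA is found in most tissues.

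The libraries held 22376867 to 23915783 counts. ATXN7L3, an adaptor of the histone H2B deubiquitinase module of the SAGA coactivator, had 36.4 to 37.5 CPM (counts per 1000000, TMM-scaled) in the control libraries. The knockdown libraries had 19.5 to 20.6 CPM, without overlap, a log2 fold change of -0.88 ± 0.056 SE (edgeR quasi-likelihood test, Benjamini-Hochberg adjusted p = 6.69e-10). Of 17935 tested genes, 24.2% passed an edgeR adjusted p of 0.05, 12.2% higher and 12.0% lower in shATXN7L3, while scaling by library size alone turned 2182 higher and 2150 lower into 2955 and 1604. Of 7 hepatoma markers, 6 were tested and all 6 were lower, from ALB, at 65.2 ± 1.69 and 24.1 ± 1.15 CPM (mean ± SD, 3 libraries), to KRT8, at 1652 ± 94.9 and 1480 ± 78.9 CPM. APOA1, with 2 to 12 counts, was too low to test. The 8 leukocyte markers summed to 4.05 to 5.32 CPM in shcontrol and 6.45 to 7.03 CPM in shATXN7L3. PTPRC, CD3E, CD2 and MS4A1 had 0 to 7 counts in any library, none of them 0 in all 6, and the B-cell gene CD79A had 30 to 38. The marker that passed, the myeloid integrin ITGAM, named after its values were seen, rose from 2.53 ± 0.550 to 4.59 ± 0.214 CPM. The 4 endothelial markers summed to 57.2 to 62.1 CPM and 42.4 to 44.4 CPM, nearly all of it PECAM1 and KDR, while CDH5 and VWF had 0 to 9 counts. PECAM1 was lower, at 43.7 ± 3.26 and 28.0 ± 0.726 CPM (-0.64; edgeR adjusted p = 1.37e-07). KDR did not pass, at 15.5 ± 2.63 and 15.3 ± 0.259 CPM (-0.02; edgeR adjusted p = 0.917). The part of these marker differences in the isoform values was not tested.

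PRKCB, on chromosome 16 from 23836001 to 24220611 (GRCh38, plus strand), was the isoform with a large difference. It had 4108, 4045 and 4484 counts in the shcontrol libraries and 1166, 1205 and 1162 in the shATXN7L3 libraries. Per exonic length, scaled to a common total in each library (TPM), this was 27.0, 26.8 and 30.3 TPM against 7.62, 7.52 and 7.24 TPM. The 3 knockdown values lay close together and far below every control value. On the log2 scale PRKCB fell by 1.93 ± 0.048 (SE), to 26.3% of its amount in control cells, with bounds of 24.6% and 28.1% at ± 2 SE. Of all tested genes, 34 (0.19%) had a log2 fold change as low or lower. In bulk RNA, fewer cells with the transcript and less transcript per cell cannot be told apart.

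The conventional partner of PRKCB in these cells was PRKCA, on chromosome 17 from 66302636 to 66810743 (plus strand). PRKCA stood at 22.3, 21.5 and 24.1 TPM in shcontrol and 24.4, 23.6 and 23.0 TPM in shATXN7L3. The groups overlapped, and the log2 fold change of 0.05 ± 0.043 SE placed the knockdown level at 97.3% to 110% of control at ± 2 SE. In every control library PRKCB exceeded PRKCA, with a TPM ratio of 1.24 ± 0.0238 (SD, n = 3), and in every knockdown library it was below PRKCA, with a ratio of 0.315 ± 0.00316. The conventional sum accordingly went from 50.7 ± 3.28 to 31.1 ± 0.920 TPM, 61.5% of control.

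The promoter windows of PRKCB, of its nearest relative PRKCA and of PRKCI, the member that was higher, are shown so that the sequence upstream of each start site can be compared. RefSeq windows (GRCh38.p14) matched all 10 members. The 250 bases before the annotated start are printed 5′ to 3′ on the gene's strand, with capitals for GC boxes, the letters GGGCGG or their complement CCGCCC, to which Sp1-type factors bind. The windows lie at chr16:23835733-23835982 (PRKCB, plus strand), chr17:66302363-66302612 (PRKCA, plus strand) and chr3:170222174-170222423 (PRKCI, plus strand).
PRKCB: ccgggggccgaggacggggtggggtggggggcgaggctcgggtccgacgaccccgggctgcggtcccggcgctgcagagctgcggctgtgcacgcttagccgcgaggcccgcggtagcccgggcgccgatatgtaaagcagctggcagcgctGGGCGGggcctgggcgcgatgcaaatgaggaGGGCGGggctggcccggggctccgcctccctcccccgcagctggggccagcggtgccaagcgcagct
PRKCA: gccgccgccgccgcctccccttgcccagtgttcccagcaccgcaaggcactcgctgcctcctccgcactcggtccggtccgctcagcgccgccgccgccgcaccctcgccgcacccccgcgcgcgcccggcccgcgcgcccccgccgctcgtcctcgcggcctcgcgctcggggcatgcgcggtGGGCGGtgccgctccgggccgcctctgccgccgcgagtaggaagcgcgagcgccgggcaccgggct
PRKCI: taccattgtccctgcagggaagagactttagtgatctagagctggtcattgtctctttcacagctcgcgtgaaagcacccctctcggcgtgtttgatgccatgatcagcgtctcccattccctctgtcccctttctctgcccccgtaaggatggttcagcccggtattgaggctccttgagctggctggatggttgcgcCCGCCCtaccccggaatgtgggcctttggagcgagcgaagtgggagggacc

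The PRKCB window held 2 GC boxes and the other windows shown 1 each. Of 35116 RefSeq windows of this length, 42.6% held at least 1 on either strand and 24.3% held at least 2. GC content was 77.2% for PRKCB, 82.0% for PRKCA and 58.0% for PRKCI, against a median of 58.0%. A TATA box (TATAAA on either strand, in 10.7% of all windows) was in none of the 3 windows shown. The 10 members had 16 windows, of which 13 held a GC box, and 7 members had 1 window each. By gene, 9 of 10 had a GC box in at least 1 window. The start sites of the 3 windows shown lay 18 to 59 bases from the gene edge in the deposited coordinates. Other start sites lay farther away, at 134020 bases for the only PRKCH window. Those of PRKCD lay 5200 to 12694 bases away and those of PRKCZ up to 54246. PRKCQ, the member with almost no reads, had a TATA match and no GC box. These matches describe letters in a window and carry no information on which factors bound.

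**Figure D1:**
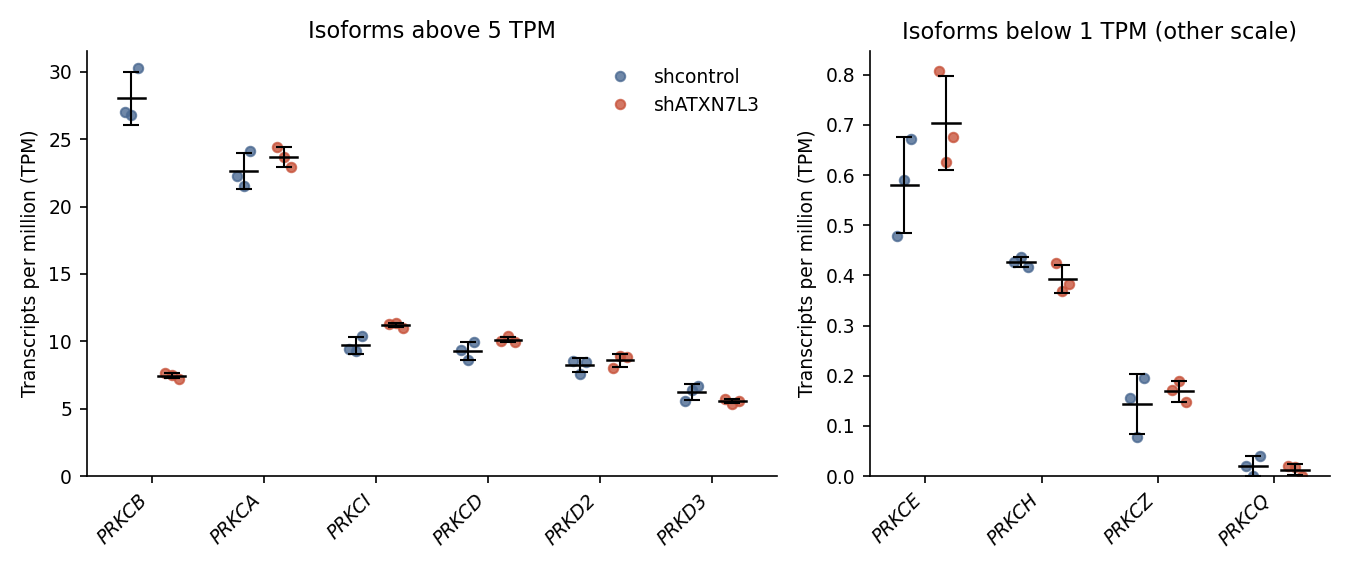
Level of each isoform in TPM (linear axes, with a different scale for the isoforms of low level) in 3 shcontrol and 3 shATXN7L3 libraries. Points are libraries, short lines are means and whiskers are SD. PRKCB averaged 28.0 TPM in shcontrol and 7.46 TPM in shATXN7L3, and PRKCA, the next most abundant, 22.6 and 23.7 TPM.

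Among the diacylglycerol-only isoforms, PRKCD (chromosome 3, 53156009 to 53192717) was the abundant one. It encodes the delta isoform, known for roles in apoptosis and stress signalling. It stood at 9.36, 8.61 and 9.95 TPM in shcontrol and 10.1, 10.4 and 9.99 TPM in shATXN7L3. The groups separated by a narrow margin, and the log2 fold change of 0.11 ± 0.061 SE did not pass the threshold. The other members of this class were low. PRKCE, the epsilon isoform, had 72 to 98 counts per control library and 99 to 122 per knockdown library, or 0.580 ± 0.0963 and 0.703 ± 0.0938 TPM (0.26 ± 0.14 SE), with groups that overlapped once scaled. PRKCH, the eta isoform found in epithelia, stood at 0.427 ± 0.0108 and 0.393 ± 0.0283 TPM (-0.14 ± 0.16 SE), also overlapping. PRKCQ, the theta isoform of T cells, had 0 to 2 counts in any library, was not tested, and gives no fold change at this depth.

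The atypical gene PRKCI encodes the iota isoform, the kinase of the PAR polarity complex (chromosome 3, 170222365 to 170305981). Its control libraries stood at 9.44, 9.28 and 10.4 TPM and its knockdown libraries at 11.3, 11.4 and 11.0 TPM. All knockdown values were above all control values, the closest pair being 10.4 and 11.0 TPM. PRKCI was the 1 member labelled higher, with a log2 fold change of 0.19 ± 0.051 SE, 114% of control (106% to 122% at ± 2 SE). Under the 14 alternatives run its log2 fold change lay between 0.17 and 0.23. PRKCZ, the zeta isoform, had 9 to 23 counts per library and stood at 0.143 ± 0.0596 TPM in shcontrol and 0.169 ± 0.0207 TPM in shATXN7L3. Its log2 fold change of 0.23 ± 0.30 SE ran from -0.05 without shcontrol replicate 2 to 0.48 without shcontrol replicate 3.

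The protein kinase D genes act at the trans-Golgi network and in signalling downstream of diacylglycerol. PRKD2 stood at 8.58, 7.61 and 8.49 TPM in shcontrol and 8.01, 8.94 and 8.82 TPM in shATXN7L3 (log2 fold change 0.05 ± 0.061 SE), with overlapping groups. PRKD3 went from 5.59, 6.42 and 6.70 TPM to 5.75, 5.39 and 5.59 TPM, and the first control library lay within the knockdown range. Its log2 fold change was -0.18 ± 0.061 SE, 88.3% of control. The call of PRKD3 ended with library size alone, with DESeq2, without shcontrol replicate 2 or 3, and without any 1 of the knockdown libraries, where its log2 fold change lay between -0.13 and -0.19. It shares 265 exon bases (2.59%) with NDUFAF7 on the opposite strand, a gene with a log2 fold change of 0.09. Whether counting used strand is unknown here, so such reads cannot be told apart.

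Over the family, 9 of 10 members had enough counts to be tested. Of these, PRKCI was higher, PRKCB and PRKD3 were lower and 6 were not past the threshold, beside 24.2% called among all tested genes. The comparison had a part in the choice of members, so nothing is read from this share. Besides PRKD3, exon overlaps with other genes touched PRKCH and PRKCZ, whose counts were low in any case.

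The summed TPM of the 9 other isoforms differed by a small part of what PRKCB lost. PRKCB was 20.6 TPM lower in the knockdown mean than in the control mean. The sum of the 9 others was 56.3, 54.6 and 61.0 TPM in shcontrol and 60.9, 60.9 and 59.6 TPM in shATXN7L3, so the groups overlapped. Their mean difference was 3.17 ± 3.40 TPM, which is 15.4% ± 16.6 of the PRKCB loss. Here ± is the SD of a difference between single libraries, which is wider than the error of a difference of group means. PRKCI contributed 1.49 ± 0.648 TPM (7.25% of the loss), PRKCA 1.04 ± 1.51 TPM (5.06%), PRKCD 0.830 ± 0.702 TPM (4.04%) and PRKD2 0.365 ± 0.735 TPM (1.77%), while PRKD3 differed by -0.66 ± 0.60 TPM. The share made up by all 9 was 8.53% without shcontrol replicate 2 and 25.8% without shcontrol replicate 3. It was 6.53% ± 5.94 when counts were not divided by length (9.07 ± 8.26 CPM). Without the protein kinase D genes, the 7 other kinase C genes differed by 3.47 ± 2.89 TPM, 16.9% ± 14.0 of the PRKCB loss. In CPM these 7 genes differed by 13.2 ± 7.71 (9.46% of the loss), from 231 to 243 CPM in the control libraries and 244 to 253 CPM in the knockdown libraries, without overlap.

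**Figure D2:**
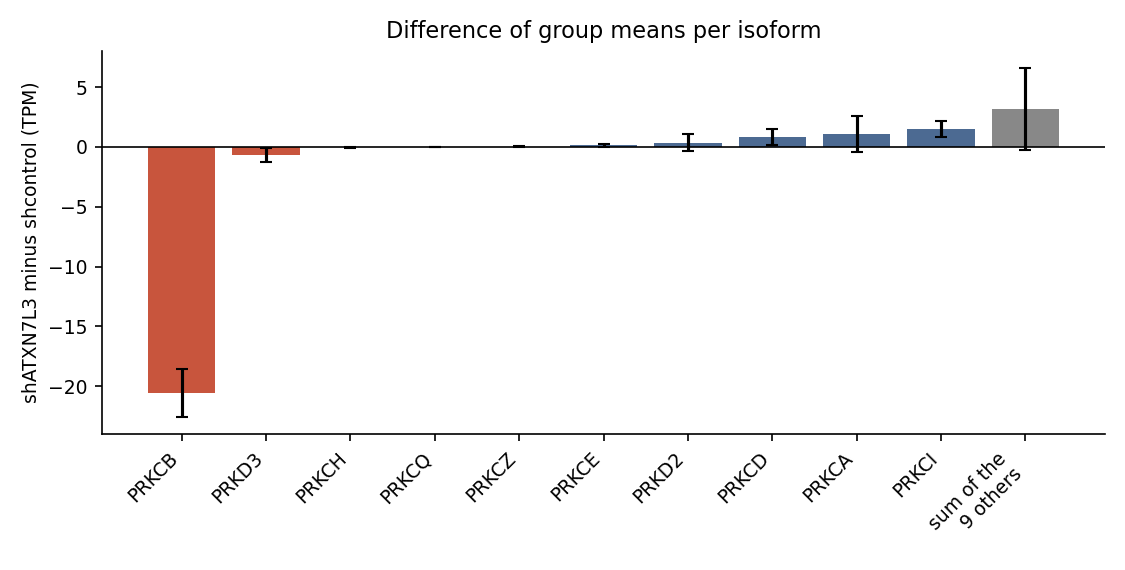
Difference of group means (shATXN7L3 minus shcontrol, TPM) for each isoform and, in grey, for the 9 isoforms other than PRKCB together. Whiskers are the SD of a difference between single libraries, from 3 libraries per group. They are wider than the error of a difference of group means, so a whisker across 0 is not a test. The bar of PRKCB reaches -20.6 TPM, and the 9 others together reach 3.17 TPM with a whisker that crosses 0.

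The sum of all 10 isoforms was 83.3, 81.4 and 91.3 TPM in shcontrol and 68.5, 68.4 and 66.8 TPM in shATXN7L3, without overlap, which put the pool at 79.6% of control. By class, the diacylglycerol-only sum went from 10.3 ± 0.722 to 11.2 ± 0.179 TPM. The atypical sum went from 9.86 ± 0.673 to 11.4 ± 0.200 TPM, and the protein kinase D sum from 14.5 ± 0.628 to 14.2 ± 0.357 TPM. The composition of the pool was tight within each group. PRKCB took 32.8% ± 0.408 of it in shcontrol and 11.0% ± 0.137 in shATXN7L3. As shares of a smaller whole, PRKCA went from 26.5% ± 0.183 to 34.9% ± 0.686, PRKCI from 11.4% ± 0.0522 to 16.5% ± 0.0894 and PRKCD from 10.9% ± 0.326 to 14.9% ± 0.239, although the levels of PRKCA overlapped between groups.

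**Figure D3:**
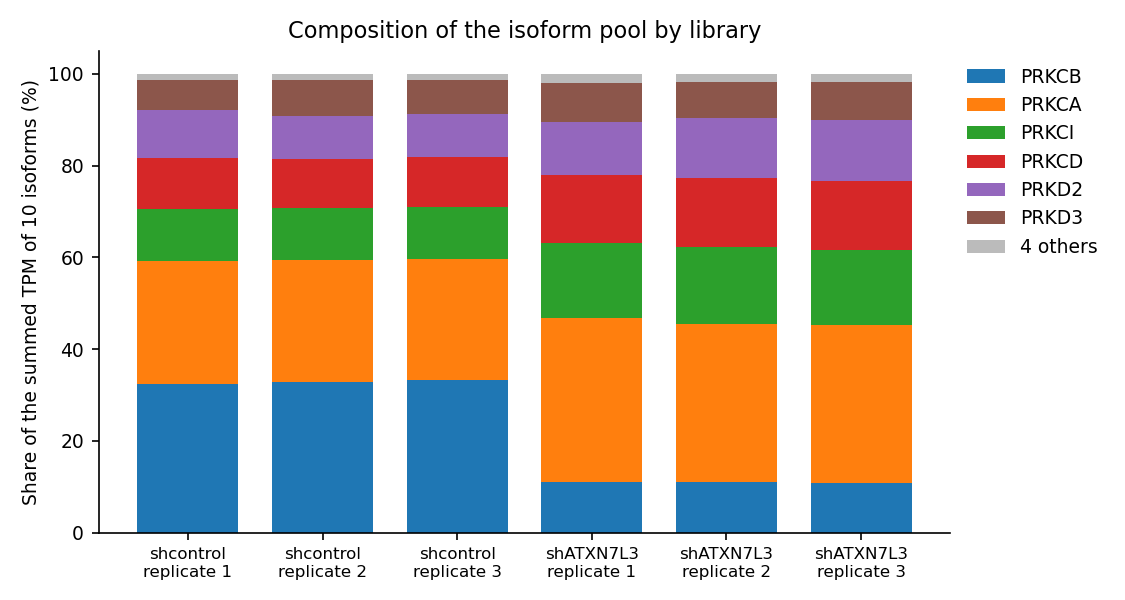
Share of each isoform in the summed TPM of the 10 genes, by library (stacked bars, percent). The bottom segment, PRKCB, covers 32.4% to 33.2% of the bar in the shcontrol libraries and 10.8% to 11.1% in the shATXN7L3 libraries.

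In control cells the order of TPM levels was PRKCB, PRKCA, PRKCI, PRKCD, PRKD2, PRKD3, PRKCE, PRKCH, PRKCZ and PRKCQ. The ranges of PRKCI and PRKCD overlapped, and those of PRKCD and PRKD2 met, with a lowest PRKCD value of 8.61 TPM and a highest PRKD2 value of 8.58 TPM. PRKCB and PRKCA did not overlap. After knockdown PRKCA came first at 23.7 ± 0.733 TPM, followed by PRKCI, PRKCD and PRKD2, and PRKCB took the fifth place at 7.46 ± 0.195 TPM, still above PRKD3 at 5.58 ± 0.180 TPM in every library. Lengths are those of all annotated exons of a gene, so an isoform with long alternative untranslated ends can be understated on this scale.

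Among related kinases outside the member list, PRKD1 stood at 2.87 ± 0.718 and 2.27 ± 0.216 CPM (-0.33 ± 0.18 SE; edgeR adjusted p = 0.205), and passed without shcontrol replicate 1 (-0.52; edgeR adjusted p = 0.0307). PKN2 (0.01) and PKN3 (0.12) did not pass (edgeR adjusted p = 0.904 and 0.27).

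Around the kinases, 9 lists covered related kinases and the genes that make, remove or relay diacylglycerol, mature or anchor the enzymes or serve as substrates. Of 71 tested genes, 13 were higher and 5 lower, 25.4% beside 24.2% among all tested genes, with a median log2 fold change of 0.01 in the lists and 0.01 over all genes. DESeq2 called 8 higher and 3 lower. The number lower was 10 without shcontrol replicate 1 and 2 without shcontrol replicate 2, shATXN7L3 replicate 1 or shATXN7L3 replicate 3. The share called over the lists was close to that over all genes.

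Upstream, 4 of 11 phospholipase C genes were higher and 7 did not pass (median 0.14). That is 36.4% called, beside 24.2% over all tested genes, and whether the share differs was not tested. PLCB4, a G-protein-coupled form, rose from 17.3 ± 1.38 to 22.9 ± 1.06 CPM (log2 fold change 0.41 ± 0.070 SE; edgeR adjusted p = 1.97e-04). The calls of PLCB3 (0.17; edgeR adjusted p = 0.0285) and PLCG1 (0.14; edgeR adjusted p = 0.0368) ended with DESeq2 (adjusted p = 0.125 and 0.122), with no filter on low counts (edgeR adjusted p = 0.058 and 0.0795) and without shcontrol replicate 2 or 3 or any 1 knockdown library (edgeR adjusted p between 0.0541 and 0.159). PLCG2, a low gene named after its values were seen, went from 1.22 ± 0.0645 to 1.84 ± 0.295 CPM (0.59; edgeR adjusted p = 0.042). DESeq2 called 1 gene of this list, PLCB4, and limma voom 3, PLCB4, PLCB3 and PLCG1, so neither called PLCG2. Of 3 tested Gq alpha subunits, which switch on phospholipase C beta, GNA14 fell from 1.99 ± 0.269 to 1.32 ± 0.136 CPM (-0.59 ± 0.20 SE; edgeR adjusted p = 0.0331). That call was lost with DESeq2 (adjusted p = 0.141), without shcontrol replicate 2 (0.126) or 3 (0.0692) and without shATXN7L3 replicate 1 (0.128), 2 (0.0614) or 3 (0.0697).

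Diacylglycerol kinases, which end the lipid signal by phosphorylating it, were higher in 2 of 7 tested cases and did not pass in 5 (median 0.12). This share of 28.6% was near the 24.2% over all tested genes. DGKA went from 3.73, 3.36 and 3.78 CPM to 5.51, 5.68 and 6.15 CPM (log2 fold change 0.67 ± 0.12 SE; edgeR adjusted p = 2.91e-04), with clear separation. It shares 353 exon bases with PYM1 on the opposite strand, a gene with a log2 fold change of -0.02. DGKG rose by less (0.25 ± 0.067 SE; edgeR adjusted p = 0.0106), and its call ended with DESeq2 (adjusted p = 0.06) and without shATXN7L3 replicate 1 (0.0698). It overlaps ETV5 on the same strand in 164 bases, so reads there cannot be told apart.

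Of the other proteins with a diacylglycerol-binding C1 domain, 1 of 6 tested passed (16.7%, beside 24.2% over all tested genes). UNC13A, a vesicle-priming factor of synapses, went from 4.84, 3.54 and 4.44 CPM to 13.0, 13.4 and 14.1 CPM (log2 fold change 1.65 ± 0.10 SE; edgeR adjusted p = 4.55e-10). The 5 others, including the Ras activators RASGRP1 and RASGRP3 and the Rac regulators CHN1 and CHN2, did not pass.

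Maturation of these kinases needs phosphorylation by PDPK1 and the mTOR complex with RICTOR, with HSP90 and CDC37 as chaperones, and the PHLPP phosphatases reverse it. None of the 11 genes of this list passed with edgeR, DESeq2 or limma voom, and 0 had an unadjusted p under 0.05 with edgeR. Over all tested genes 24.2% passed with edgeR, and whether the list differs from that was not tested. The log2 fold changes of the list lay between -0.15 and 0.09. HSP90AB1, with the highest mean CPM over the 6 libraries together, stood at 2097 ± 132 and 2187 ± 54.9 CPM (0.06 ± 0.048 SE; edgeR adjusted p = 0.402).

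Among anchors and polarity partners, DESeq2 called 1 higher and 3 lower. With edgeR, 2 were higher and 4 lower of 11 tested (median -0.19), 54.5% beside 24.2% over all tested genes. Whether this share differs from that of other genes was not tested. AKAP12, a scaffold that binds protein kinases A and C, rose from 185, 204 and 186 CPM to 323, 341 and 345 CPM (log2 fold change 0.81 ± 0.048 SE; edgeR adjusted p = 1.99e-10). The lowest knockdown value was well above the highest control value. SQSTM1, the p62 scaffold that binds atypical isoforms, fell from 1989 ± 69.5 to 1690 ± 33.8 CPM (-0.23 ± 0.043 SE; edgeR adjusted p = 4.08e-04), with 20.7% of its exon bases shared with C5orf45 on the opposite strand, a gene with a log2 fold change of -0.24. SDC4, a syndecan that recruits PRKCA to focal adhesions, fell from 161 ± 14.6 to 135 ± 1.12 CPM (-0.25 ± 0.054 SE; edgeR adjusted p = 0.00171). PARD3 (-0.19; edgeR adjusted p = 0.0128) and PARD6B (-0.22; edgeR adjusted p = 0.0335), partners of PRKCI in the polarity complex, were also lower, are named after their values were seen, and were not followed through the alternatives. PRKCDBP, a caveolar protein that binds protein kinase C delta, was the other higher gene, also named after its values were seen (0.38; edgeR adjusted p = 0.0412). Its groups overlapped, with a knockdown library at 4.99 CPM and a control library at 5.29 CPM, and DESeq2 did not call it. RACK1, the receptor for activated C kinase, did not pass, at 302 ± 9.39 and 295 ± 8.11 CPM (edgeR adjusted p = 0.63).

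Of 12 tested substrate genes, 1 passed (8.33%, beside 24.2% over all tested genes). VASP, an actin regulator phosphorylated by several kinases, rose from 94.9, 94.0 and 95.4 CPM to 110, 111 and 111 CPM (log2 fold change 0.23 ± 0.043 SE; edgeR adjusted p = 5.81e-04). BCL10 belongs to the CARD-BCL10-MALT1 complex, the NF-kB relay that protein kinase C beta drives in B cells. Of 5 tested genes of this list, 2 were higher and 3 did not pass (median 0.05). That is 40% called, beside 24.2% over all tested genes, and whether the share differs was not tested. BCL10 went from 7.38, 7.78 and 6.77 CPM to 10.7, 10.1 and 10.2 CPM (0.50 ± 0.089 SE; edgeR adjusted p = 3.27e-04).

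**Figure D4:**
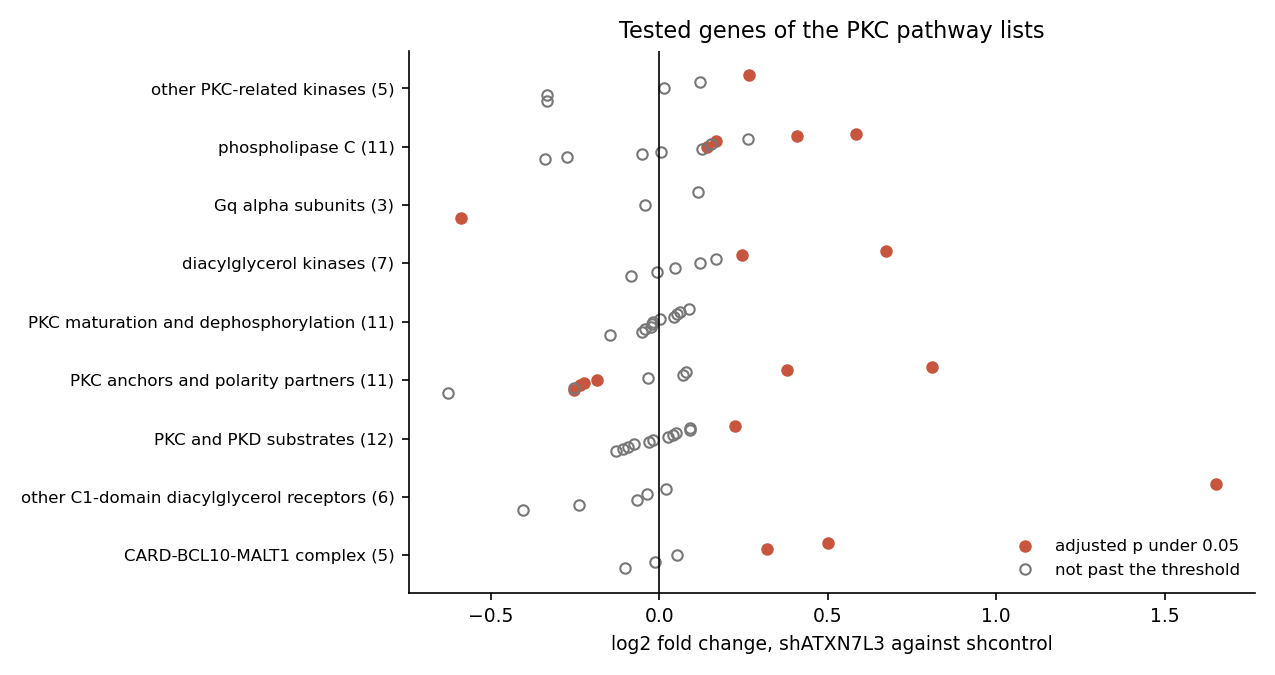
Log2 fold change (shATXN7L3 against shcontrol) of each tested gene in the 9 pathway lists, with the number tested in brackets. Filled points passed an edgeR adjusted p of 0.05, and the vertical offset within a list only separates points. The point farthest right is UNC13A at 1.65, and the list of maturation genes has only open points, all between -0.15 and 0.09.

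None of the nearest tested genes beside PRKCB passed the threshold. The nearest tested genes before it on chromosome 16 were PLK1, a mitotic kinase (145634 bases away, log2 fold change 0.01; edgeR adjusted p = 0.859), and ERN2 (122501 bases, -0.03; edgeR adjusted p = 0.943). After it came RBBP6 (317082 bases, -0.12; edgeR adjusted p = 0.197) and TNRC6A, a microRNA effector (389598 bases, -0.05; edgeR adjusted p = 0.553). Of these 4 neighbours, 0 passed with edgeR, DESeq2 or limma voom and 0 had an unadjusted p under 0.05 with edgeR, although RBBP6 passed without shcontrol replicate 1 (-0.22; edgeR adjusted p = 2.72e-04). Over the 40 neighbours of all members, 5 were higher and 9 lower (35%, beside 24.2% over all genes). Whether that share differs was not tested.

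The tested genes whose centred log2 CPM over the 6 libraries lay nearest to PRKCB, by Euclidean distance, were SOST, SERPINA1 and FAM198B, at distances of 0.291, 0.312 and 0.322. They were chosen for that likeness, which fixes a lower level in the knockdown libraries, so their values are given without a test. SOST, which encodes the Wnt antagonist sclerostin, averaged 5.69 ± 0.869 CPM in control and 1.40 ± 0.0972 CPM in knockdown libraries (log2 fold change -2.02 ± 0.16 SE). SERPINA1 (-1.80) encodes alpha-1-antitrypsin of hepatocytes. FAM198B (-2.20) encodes a Golgi-associated protein, and the gene overlaps an opposite-strand gene in 13.2% of its exon bases.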

How the data were processed

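RNA of 6 HCCLM3 libraries was measured by poly-A RNA sequencing. The authors deposited raw read counts per gene with exonic lengths. Tools listed in the submitters' processing notes are edgeR 3.12.1, Subread 1.5.1 with featureCounts, STAR 2.5.3a and Trimmomatic 0.36, and the build is GRCh38. For annotation release, strand setting and multi-mapped reads nothing was given in the sources used. Groups came from the treatment label. Counts were tested with edgeR 4.0.16 in R 4.3.3 (quasi-likelihood F-test, TMM, filterByExpr with a minimum count of 10 and total of 15, Benjamini-Hochberg over all tested genes, threshold 0.05). SE is the size of the log2 fold change divided by the square root of F. CPM are TMM-scaled; TPM are counts per exonic length, scaled to a sum of 1000000. On one simulated data set of 17727 genes, 76.5% of genes changed 1.5-fold and 89.9% of those changed 2-fold were recovered, and 5.75% of 174 calls were false. The simulation gave every gene the same dispersion and changed few genes, so these rates need not hold for the real libraries. In chi-square per gene, library pairs differed by 3.60 to 6.52 within shcontrol and by 1.59 to 2.18 within shATXN7L3. The control libraries thus differed more among themselves. Sampling noise gives about 1, so none was treated as the same library deposited again. Separate libraries from the same RNA or culture would also exceed that noise. Alternatives were other scalings and filters, DESeq2 1.42.0, limma voom 3.58.1, a replicate block and each library left out.

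The members and lists were chosen with earlier results of these data known. Named genes are the members, ATXN7L3, the related kinases, up to 3 called genes per list with the smallest p (or the most abundant where none passed), the 2 nearest tested genes on each side of PRKCB and the 3 nearest patterns. RASGRP1, RASGRP3, CHN1, CHN2 and RACK1 are named as examples of genes that did not pass. Some genes of the lists enter the counts but are not reported here by name. Protein sequences were not used here. Of 85 list genes, 82 were in the table and 71 were tested.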

Additional observations from a re-analysis of the deposited data

How the results depend on the processing

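PRKCB stayed between -1.95 and -1.88 on the log2 scale under the 14 alternatives and PRKCI between 0.17 and 0.23. ATXN7L3 kept its call throughout (-0.89 to -0.83). DESeq2 called 1405 genes higher, 8 list genes higher and 3 lower, and 1 member lower; library size alone also left 1 member lower. Leaving out 1 library moved the number of lower list genes between 2 and 10, of lower members between 1 and 2 and of lower PRKCB neighbours between 0 and 1. The summed level of the 10 isoforms was 73.9% of control when counts were not divided by length. The cause of these shifts was not tested. Same-numbered libraries did not deviate together (r = -0.016, 0.0051 and 0.044), and the other pairs had r from -0.072 to 0.067. Whether libraries of the same number were handled together cannot be read from these values. The replicate block gave 2188 genes higher and 2140 lower, and 14 and 6 list genes. Of 503 values of named genes under alternatives, 22 of genes outside the family lost a call and 2 gained one. Family members were compared by size: 2 values (PRKCA and PRKCI with library size alone) moved by more than the replicate SD, and PRKD3 lost its call in 7 alternatives. Depth limits PRKCQ, PRKCZ, PRKCH and PRKCE, which had at most 122 counts per library.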
